A study of Gallus gallus with 27 samples.

Results

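The comparison described here sets spontaneously immortalized chicken fibroblasts that grow without a surface against their attached counterpart. SCF4, with 3 libraries, is labelled as an anchorage-independent, spontaneously immortalized chicken embryonic fibroblast culture, and CF4, also with 3 libraries, as immortalized fibroblasts. The members were chosen by the labels alone, as all libraries of these 2 groups, which gave 6 of the 27 libraries of the series. The number 4 marks the line. CF4 is labelled Israeli Baladi, and SCF4 is labelled Israeli Baladi in its source name but Broiler Ross 308 in its breed field, so that the breed of SCF4 is not settled by the labels. Per the labels' protocols, suspension cultures were started from immortalized fibroblasts as spheroids formed in microwells, kept in low-attachment dishes with the surfactant Pluronic F-68 and then in shaken flasks, and both kinds of culture were fed DMEM with fetal bovine serum. The protocol attached to CF4 also describes a lipid-rich medium with oleic acid and lecithin that turns fibroblasts into fat-storing cells, and it does not say which libraries received it. Immortalization was by long passage, and the labels name no transgene and no animal age. The series calls the 3 libraries of a group biological replicates without saying whether they came from separate cultures. The p-values below measure the spread between libraries of the same group, pooled over all groups in a fit. This spread may be technical, and SCF4 and CF4 each stand for 1 line.

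Fibroblasts are the matrix-making cells of connective tissue. In culture they normally spread on a surface through integrins, receptors that tie the extracellular matrix to focal adhesions and actin filaments, and tension on these contacts feeds the transcriptional co-activators YAP and TAZ. Most untransformed fibroblasts stop dividing or die by anoikis, a form of apoptosis, when they lose these contacts, and growth in suspension therefore asks for cells that have become independent of anchorage.

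RNA was total RNA sequenced in pairs on a HiSeqX. The deposited values are reads per gene divided by a factor for each library, called normalized reads here. Multiplying back gave 12.26 to 25.36 M reads in the SCF4 libraries and 21.82 to 27.54 M in the CF4 libraries, and 1 read was worth 0.344 to 0.725 normalized reads in SCF4 and 0.294 to 0.369 in CF4. The pairwise correlation of log2 values across genes was 0.992 to 0.996 within SCF4 and 0.997 within CF4. SCF4 was deposited with the first set of libraries and CF4 with the second, so that set and growth mode cannot be told apart in this comparison. Of 14161 rows, 20 were lower and 12 higher in every one of the 12 first-set libraries than in every one of the 15 second-set libraries, and among the 24 genes with the largest changes named below CSNK2B and ATP8 were of this kind.

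Markers were checked first. COL1A1 averaged 34834 ± 9321 normalized reads (SD, n = 3) in SCF4 and 26437 ± 1522 in CF4, THY1 12944 ± 1030 and 11257 ± 365, TWIST2 7450 ± 1214 and 4590 ± 109, and PRRX1 4321 ± 155 and 5369 ± 300, so that these fibroblast markers were abundant in both groups, with PDGFRA low at 21.9 ± 7.45 and 8.60 ± 2.99. S100A4, a further fibroblast gene, was at 4.28 to 8.70 in SCF4 and 457 to 509 in CF4, and 14 members of the list of mesenchymal and fibroblast identity averaged under 10 in both groups. Of 21 skeletal muscle markers, 19 averaged under 10 in both groups, with MYOG, MYF5 and MYF6 at 0, and the sums of all 21 were 117 to 143 in SCF4 and 162 to 178 in CF4, most of it MYH1E (103 and 135 on average). Epithelial markers summed to 52.2 to 74.7 and 65.6 to 87.2, with KRT5, KRT18 and CLDN1 at 0, and erythroid markers to 3.44 to 5.99 and 8.49 to 10.6. Endothelial markers summed to 953 to 1417 in SCF4 and 1728 to 1770 in CF4, most of it ERG (1196 and 1673 on average), while KDR averaged 0 and 0.205. Macrophage and leukocyte markers summed to 348 to 358 in SCF4 and 136 to 146 in CF4, with CD74 the main part, C1QA, C1QB, C1QC and SPI1 at 0 and PTPRC at 2.94 and 5.40. Cartilage and bone markers summed to 760 to 927 in SCF4 and 609 to 652 in CF4, with 10 of 14 averaging under 10 in both groups. Neural and neural crest markers had the highest sums of these lists of other cell types, 7777 to 9380 in SCF4 and 6276 to 6338 in CF4. Of these 16 markers, 12 averaged under 10 in both groups, so that few genes carried the sums. The median log2 change, SCF4 minus CF4, of the 15 tested was −0.15, against 0.058 over all genes. In bulk RNA, fewer cells of a kind and less RNA per cell cannot be told apart.

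The main test was limma on log2 of normalized reads plus 1, fitted over 18 libraries of 6 groups, with Benjamini-Hochberg adjustment over all genes and a threshold of 0.05. All log2 changes below are SCF4 minus CF4 on that scale, which understates the change of low genes, and rose, fell and called refer to this test unless another is named. Of 13123 genes tested, 6002 were called, which is 45.7%. In SCF4, 3585 rose (27.3%) and 2417 fell (18.4%), a share of 59.7% upward among the called genes that came to 51.2% with edgeR on the recovered reads, 51.1% with DESeq2, 51.5% after quantile normalization and 49.7% after adjustment for gene span. After that last adjustment, 21.3% of all genes tested were called higher and 21.6% lower. Most changes were small: the median absolute log2 change was 0.38 and the 90th percentile 1.10. A called rise of at least 1 on the log2 scale was found for 826 genes (6.29%) and a called fall of that size for 741 (5.65%). The 3 libraries of each group did not overlap for 7541 genes (57.5%).

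**Figure D1:**
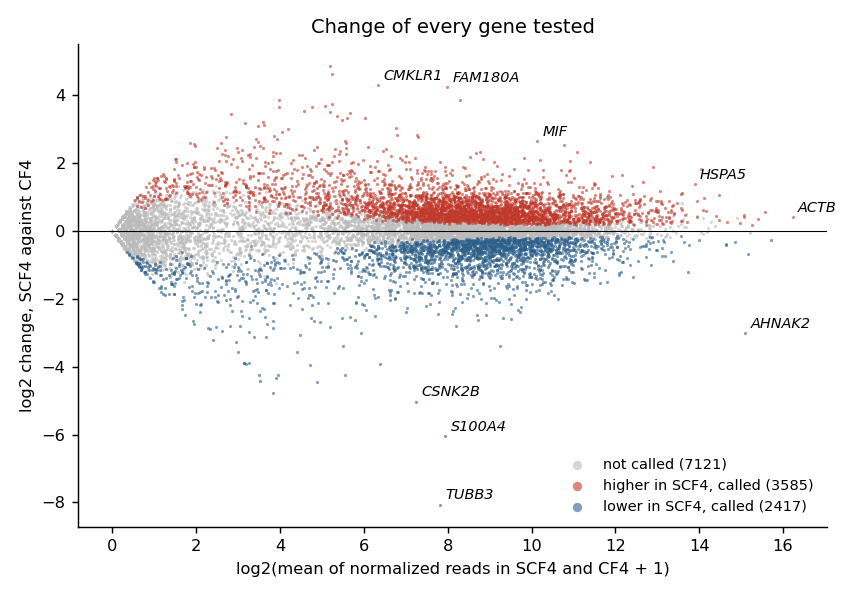
Each point is 1 of 13123 genes, with the mean level of the 6 libraries on the x axis (log2 of normalized reads plus 1) and the log2 change of SCF4 over CF4 on the y axis; coloured points are the 3585 genes that rose and the 2417 that fell. Called genes of both directions lie along the range of levels, with TUBB3 lowest at −8.07 and AHNAK2 a fall of 3.02 among the abundant genes.

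Among genes with an official symbol, a mean of 10 or more recovered reads per M in the higher group and no overlap between the groups, the largest rises were in genes of unlike kinds. CMKLR1, the receptor of the adipokine chemerin, had 166, 142 and 153 normalized reads in SCF4 and 6.76, 6.64 and 7.36 in CF4. All 3 SCF4 libraries lay far above all 3 CF4 libraries, a log2 change of 4.29 ± 0.11 (SE; limma adjusted p = 2.02e-14). FAM180A had 564, 406 and 472 against 25.4, 29.5 and 19.1, a log2 change of 4.24 ± 0.16 (adjusted p = 5.58e-12). HSPB9, a small heat shock protein, was more uneven in SCF4, at 534, 805 and 412, but still far above CF4 at 36.7, 42.1 and 35.9 (log2 change 3.85). MIF, a cytokine that also has tautomerase activity, had 2538, 1378 and 1908 against 277, 311 and 319, with a log2 change of 2.64 ± 0.20 (adjusted p = 2.38e-08). ELN, which encodes the elastic fibre protein elastin, had 2316, 4278 and 2403 against 517, 515 and 452, with a log2 change of 2.54 ± 0.22. MFAP5, a microfibril protein of elastic fibres, rose by 2.82 and the early growth response factor EGR1 by 2.33. The other rises among the 12 largest were KIF25 (3.47), METTL9 (3.34), the transporter ABCB5 (2.78), the sodium-proton exchanger SLC9A9 (2.48) and DIXDC1 (2.34).

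The largest falls by the same criteria went down to a few reads. TUBB3, a beta tubulin best known from neurons, had 1.72, 0.725 and 0 normalized reads in SCF4, from 6 reads in all, and 457, 451 and 438 in CF4, from 4128 reads. Its log2 change was −8.07 ± 0.30 (limma adjusted p = 5.58e-12). S100A4, a calcium-binding protein also called fibroblast-specific protein, had 6.87, 8.70 and 4.28 against 457, 509 and 487, a change of −6.04 ± 0.33 (adjusted p = 3.84e-10). The groups did not overlap for either gene, as the criteria required, and SCF4 was close to its detection limit for TUBB3. CSNK2B, the regulatory subunit of casein kinase 2, had 6.53, 9.42 and 8.13 against 301, 290 and 281 (−5.03 ± 0.39), and the glutathione transferase GSTA3 7.56, 5.07 and 8.13 against 79.5, 73.5 and 92.4 (−3.40). The endothelin receptor EDNRB2 fell by 3.93. AHNAK2, a very large scaffold protein, went from 53777, 48749 and 84129 in CF4 to 6073, 10158 and 6647 in SCF4, a change of −3.02 ± 0.20. ID2, an inhibitor of helix-loop-helix factors, had 145, 73.2 and 149 against 718, 794 and 647 (−2.61). PTPN14, a phosphatase that restrains YAP, had 125, 159 and 156 against 815, 748 and 885 (−2.48). SNRPN (−2.79), ZNF469 (−2.60), ZFHX3 (−2.57) and the mitochondrially encoded ATP8 (−3.38) complete the 12 largest falls.

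**Figure D2:**
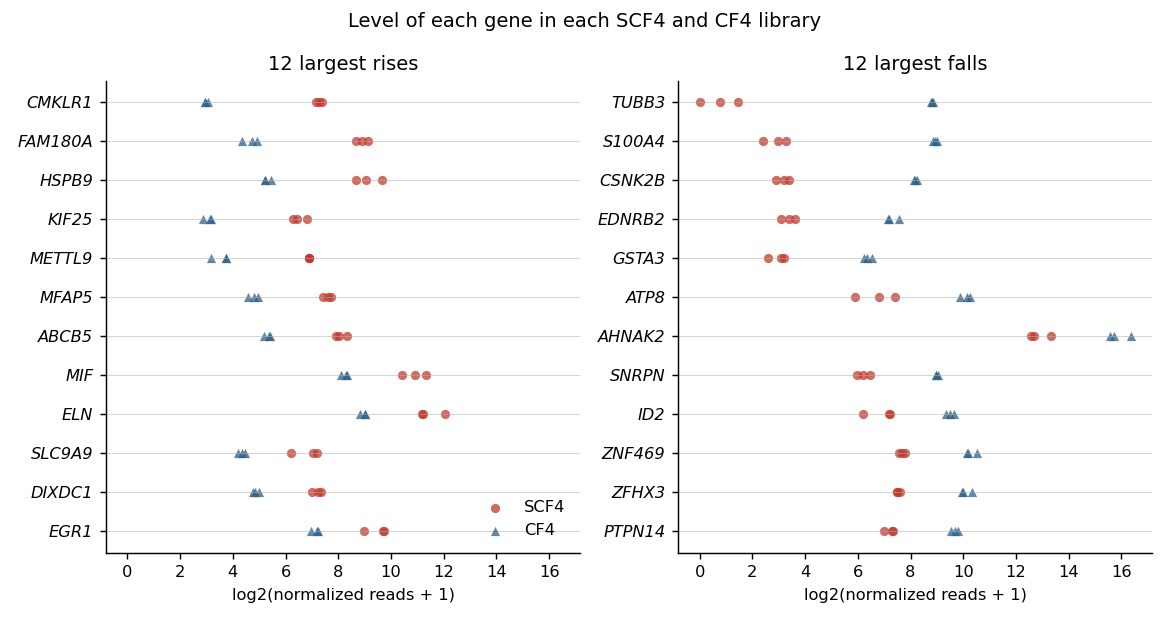
Normalized reads of the 12 genes with the largest rise and the 12 with the largest fall, on a log2 axis, with 1 point for each of the 3 SCF4 and 3 CF4 libraries. The 24 genes were chosen so that the libraries of the groups do not overlap. TUBB3 lies lowest in SCF4, at 0 to 1.72 against 438 to 457 in CF4.

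By absolute size, the gains were greatest in abundant genes. HSPA5, the main chaperone of the endoplasmic reticulum, had 21487, 21782 and 22511 normalized reads in SCF4 and 8439, 8122 and 8789 in CF4, a log2 change of 1.38 ± 0.06 (limma adjusted p = 6.74e-11). PDIA3, a disulfide isomerase of the same compartment, had 30424, 34674 and 27693 against 14863, 14884 and 14819 (1.05). ACTB (0.41), EEF1A1 (0.55), GAPDH (0.48) and ENO1 (0.36) also rose and belong to the 6 largest gains in reads, but none of these 4 was called after adjustment for gene span (adjusted p = 0.698, 0.153, 0.256 and 0.220), and ENO1 was not called by edgeR (adjusted p = 0.0516) or without SCF4 replicate 2 (0.0592). Among the largest losses in reads were those of AHNAK2, PABPC1 (−0.67), SDC2 (−0.27), EIF4G2 (−0.41) and THBS1 (−0.40). PABPC1, which binds the poly(A) tails of messenger RNAs, had 30159, 23681 and 32103 against 44692, 45870 and 44635. SDC2 was not called after adjustment for gene span (adjusted p = 0.839), without SCF4 replicate 2 (0.0976) or without CF4 replicate 1 (0.0517).

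Among the structural matrix genes, several chains of fibrillar collagens and of collagen VI rose. Of 19 collagen genes tested, 10 rose (52.6%, against 27.3% of all genes tested) and the other 9 were not called, with a median log2 change of 0.37 against 0.058 over all genes. COL6A2 had 11581, 11790 and 12872 normalized reads in SCF4 and 3163, 3344 and 3305 in CF4, a log2 change of 1.88 ± 0.06 (limma adjusted p = 6.37e-13), and COL6A1, its partner chain, rose by 1.76. COL1A2 had 5726, 10794 and 6740 against 2974, 3077 and 2926 (1.32), with SCF4 replicate 2 the highest. COL1A1, the other chain of type I collagen, had 27531, 45332 and 31639 against 27509, 27106 and 24695. The lowest SCF4 library thus lay just above the highest CF4 library, and the change of 0.37 was not called (adjusted p = 0.151), though it was after quantile normalization (0.47, adjusted p = 0.0285). SERPINH1, the collagen chaperone, had 12382, 11291 and 12091 against 5206, 5564 and 5042 (1.18). It was 1 of 7 collagen processing genes of 15 that rose (46.7%). CRTAP fell, but was not called without SCF4 replicate 2 (limma adjusted p = 0.0914) or CF4 replicate 2 (0.0531).

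The glycoproteins split. Of 31 matrix glycoproteins and proteoglycans, 10 rose (32.3%, against 27.3% of all genes) and 9 fell (29.0%, against 18.4%). With ELN rose EFEMP1 (1.37), tenascin C, TNC (1.21), SPARC (1.08) and fibronectin, FN1 (0.81). POSTN, periostin, had 144, 130 and 147 normalized reads in SCF4 and 563, 529 and 595 in CF4, a log2 change of −1.99. The proteoglycan VCAN, at 747, 779 and 983 against 2396, 2176 and 3060, fell by 1.6 and the laminin chain LAMA5 by 0.90. Of 20 matrix proteases and inhibitors, 9 rose (45.0%) and 4 fell (20.0%). Among those that rose was the tissue inhibitor TIMP3, at 423, 433 and 450 against 164, 196 and 163 (1.32).

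The adhesion receptors moved by member. Of 16 integrin subunits, 5 rose (31.2%, against 27.3% of all genes) and 5 fell (31.2%, against 18.4%), or 3 and 6 after quantile normalization. The laminin receptor subunit ITGA6 had 2387, 2876 and 2487 normalized reads in SCF4 and 6063, 5922 and 6461 in CF4, and its log2 change was −1.25 ± 0.10 (limma adjusted p = 3.33e-08). ITGAV, the alpha subunit of vitronectin receptors, had 7188, 7067 and 8253 against 13890, 12851 and 14822 (−0.89). ITGA9 fell by 1.47. ITGB1, the common beta chain, was nearly level at 10978, 11848 and 11262 against 12599, 12533 and 12962, and its fall of 0.16 was called (adjusted p = 0.0354) but not after adjustment for gene span (0.268), with only SCF4 and CF4 in the fit (0.0752), without SCF4 replicate 1 (0.108) or 3 (0.0778), or without CF4 replicate 1, 2 or 3 (0.0733, 0.0651 and 0.115). ITGB5 rose by 0.90. Of 25 focal adhesion adaptors and kinases, 9 fell (36.0%) and 5 rose (20.0%), with a median of −0.16. With edgeR, without SCF4 replicate 1 or without CF4 replicate 3, 3 rose. LPP, a zyxin relative at adhesions, had 78.7, 117 and 76.6 against 418, 401 and 577 (−2.35), and the integrin-linked adaptor PARVA 89.4, 115 and 102 against 232, 220 and 226 (−1.15), so that both were lower in every SCF4 library. Vinculin, VCL, fell by 0.62, while TES rose by 1.14 with 3116, 3252 and 3358 against 1481, 1403 and 1515. PTK2, focal adhesion kinase, had 834, 836 and 886 against 857, 873 and 930, and its change of −0.06 was not called (adjusted p = 0.622); after adjustment for gene span it was 0.27 (adjusted p = 0.00511).

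Among genes of contacts between cells, the cadherin gene CDH2 fell and CDH11 rose. Of 22 cadherins and catenins, 2 rose (9.09%, against 27.3% of all genes) and 5 fell (22.7%, against 18.4%). Without SCF4 replicate 2 or CF4 replicate 2, 3 fell. Of the 22, 14 averaged under 10 normalized reads in both groups, so that few members could be followed. CDH2, N-cadherin, had 6632, 6232 and 7255 normalized reads in SCF4 and 10822, 10878 and 11545 in CF4 (log2 change −0.73, limma adjusted p = 1.76e-05). CDH11 went the other way at a lower level, with 415, 293 and 437 against 96.8, 101 and 110 (1.87). CDH10 had no read in SCF4 and 9.01, 11.1 and 5.59 normalized reads in CF4, at least 18.9-fold lower in SCF4 against the floor of 3 reads over the group. The epithelial cadherin CDH1 was at 1.61 or less in all 6 libraries.

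Among tension-linked genes, the regulators TEAD1 and YAP1 fell. Of 19 YAP and TEAD factors and upstream kinases, 7 fell (36.8%, against 18.4% of all genes) and 2 rose (10.5%, against 27.3%). The counts were 5 and 4 after adjustment for gene span, 4 and 2 without CF4 replicate 1 or 2, and 6 and 4 without SCF4 replicate 2. TEAD1, a DNA-binding partner of YAP, had 203, 191 and 246 normalized reads in SCF4 and 825, 797 and 883 in CF4, a log2 change of −1.97 (limma adjusted p = 2.10e-08). YAP1 had 523, 713 and 584 against 1255, 1220 and 1303 (−1.06, adjusted p = 1.06e-06). WWTR1, which encodes TAZ, fell by 0.69, but this was not called without SCF4 replicate 2 (adjusted p = 0.239), without CF4 replicate 1, 2 or 3 (0.0685, 0.0671 and 0.0856) or after adjustment for gene span (0.0508). Of 15 target genes of YAP and of serum response factor, 6 rose and 7 fell, or 3 and 5 after adjustment for gene span: ANKRD1 fell by 0.53 and CYR61 rose by 0.52 (after adjustment for gene span not called, limma adjusted p = 0.475). Of 29 actin and contractile genes, 8 rose (27.6%, against 27.3% of all genes) and 7 fell (24.1%, against 18.4%). The share that rose was thus that of all genes. By edgeR 5 were higher and 9 lower, and without SCF4 replicate 1 the counts were 5 and 6. VIM, the intermediate filament protein vimentin, rose by 0.57, the actin regulator CALD1 by 1.99 from 9.33, 13.3 and 10.9 in CF4 to 36.8, 55.1 and 51.4 in SCF4, and ACTA2, smooth muscle actin, was at 1263, 997 and 1223 against 1251, 1494 and 1273 with no call (adjusted p = 0.104), though it was called lower by edgeR (−0.30, adjusted p = 0.0212) and DESeq2 (−0.31, 0.00746).

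Among survival genes, members of opposite roles changed. Of the 26 tested on the anoikis list, 12 rose (46.2%, against 27.3% of all genes) and 3 fell (11.5%, against 18.4%), or 8 and 3 after adjustment for gene span. The protective BCL2L1 had 4743, 6498 and 4051 normalized reads in SCF4 and 2200, 2352 and 2100 in CF4, a log2 change of 1.17 ± 0.15 (limma adjusted p = 4.40e-06), while the related BCL2 had 33.3, 47.1 and 50.5 against 111, 105 and 102 (−1.28). BOK, a pro-apoptotic member of the family, rose by 2.08, from 49.2, 39.9 and 47.1 in CF4 to 206, 203 and 175 in SCF4.

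Genes that brake the cell cycle changed in opposite directions. CDKN1A, which encodes p21, had 36.1, 32.6 and 24.4 normalized reads in SCF4 and 3.86, 7.01 and 9.42 in CF4, a log2 change of 2.10 (limma adjusted p = 3.62e-06), and CDKN1B, p27, had 407, 432 and 435 against 176, 180 and 151 (1.33). CDKN2B, the p15 inhibitor of CDK4 and CDK6, had 41.9, 34.1 and 44.1 against 238, 211 and 191 (−2.39). CDKN2A, which encodes ARF in chicken, rose by 0.72. The D-type cyclin CCND1 had 855, 1144 and 1098 against 2725, 2658 and 2780 (−1.41), and its partner CDK6 fell by 1.03. TERT was at 1.48 or less in all 6 libraries, MDM2 was at 251, 323 and 331 against 275, 296 and 288 with no call (adjusted p = 0.734), and RB1 (−0.06) was not called. Over the list of cell cycle inhibitors and immortalization genes, 6 of 24 rose and 12 fell, against 27.3% and 18.4% of all genes tested. The share that rose was thus near that of all genes, and the share that fell was above it.

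Proliferation genes moved by member. Of 31 mitosis genes, 13 rose (41.9%, against 27.3% of all genes) and 13 fell (41.9%, against 18.4%). MKI67, the proliferation antigen, had 1357, 1121 and 1723 normalized reads in SCF4 and 2348, 2383 and 2691 in CF4, a log2 change of −0.84 (limma adjusted p = 7.58e-05). Of 32 DNA replication genes, 16 rose and 3 fell, led by RFC4 (0.99) and the primase subunit PRIM1 (1.12), but 5 were higher and 6 lower after adjustment for gene span, and 9 and 3 without SCF4 replicate 2. PCNA, the sliding clamp, had 3596, 3704 and 2957 against 2509, 2437 and 2505 (0.45), and it was not called after that adjustment (adjusted p = 0.473). MYC fell by 0.49.

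Growth factor signalling shifted at single receptors. IGF1R, the receptor of insulin-like growth factors, had 199, 291 and 327 normalized reads in SCF4 and 1325, 1316 and 1605 in CF4, a log2 change of −2.40 ± 0.18 (limma adjusted p = 1.92e-08). EGFR went up from a low level, with 26.5, 21 and 20.5 against 2.25, 4.43 and 5.00 (2.31), and the ligand PDGFA with 165, 181 and 175 against 54.4, 66.8 and 55.3 (1.55). The 33 receptors of the list held 7 that rose (21.2%, against 27.3% of all genes) and 9 that fell (27.3%, against 18.4%). In the TGF-beta and BMP pathway 7 of 36 rose (19.4%) and 10 fell (27.8%). The ligands BMP2 (1.73) and INHBA (1.64) rose, whereas the transducer SMAD3 fell by 1.19, with 304, 357 and 324 against 731, 774 and 740, and the BMP-responsive ID1 by 1.29, ID3 by 0.93 and ID4 by 1.27 alongside ID2. Of 37 Wnt pathway genes, 6 rose (16.2%) and 9 fell (24.3%). WNT6 had 102, 58.7 and 98.0 against 9.01, 11.1 and 3.83 (3.34), and the Wnt-responsive factor TCF7 fell by 1.68.

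**Figure D3:**
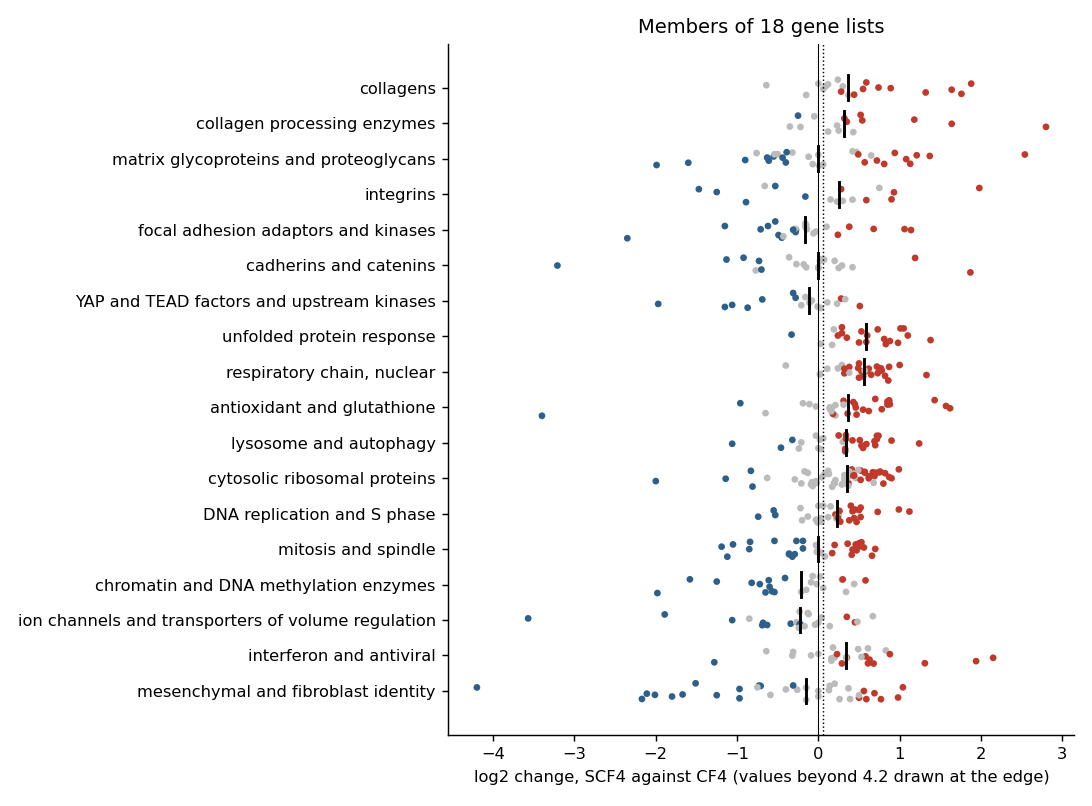
Log2 change of SCF4 over CF4 for the tested members of 18 gene lists, 1 point per gene, in red where it rose, blue where it fell and grey where not called, with a black bar at each list's median and a dotted line at 0.058, the median of all genes. The unfolded protein response (median 0.59) and the respiratory chain (0.56) lie farthest to the right, and chromatin enzymes (−0.21) and volume regulation (−0.22) lie to the left; S100A4 (−6.04) is drawn at the left edge.

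Secretory chaperones rose together. Of 21 genes of the unfolded protein response, the programme that raises folding capacity in the endoplasmic reticulum, 17 rose (81.0%, against 27.3% of all genes tested) and ERN1 fell by 0.33 (not called without SCF4 replicate 2, limma adjusted p = 0.0644), with a median of 0.59. Beside HSPA5 and PDIA3, calreticulin, CALR, had 12831, 9202 and 12208 normalized reads in SCF4 and 6186, 6108 and 6163 in CF4 (0.88), the transcription factor XBP1 2489, 2566 and 1918 against 1306, 1296 and 1297 (0.83) and the folding factor MANF 1447, 1896 and 1313 against 739, 710 and 690 (1.10). Every SCF4 library was above every CF4 library in these 3 genes. DNAJB9 was at 289, 253 and 282 against 252, 224 and 245 with no call (limma adjusted p = 0.0695). The count was 14 higher and 1 lower after adjustment for gene span, and 16 to 17 rose when each SCF4 or CF4 library was left out in turn. In the amino acid response, CHAC1 rose by 1.86 while asparagine synthetase, ASNS, was at 4171, 3140 and 3742 against 3443, 3307 and 3495 (adjusted p = 0.455).

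Energy and redox genes rose in number in the main test, by small steps. Of 30 nuclear respiratory chain genes, 22 rose (73.3%, against 27.3% of all genes) and 8 were not called, with a median of 0.56. The complex II subunit SDHB had 1375, 1308 and 1320 normalized reads in SCF4 and 728, 758 and 717 in CF4 (0.86, limma adjusted p = 1.07e-07). NDUFV1 of complex I had 2613, 3420 and 2135 against 1337, 1388 and 1275 (1.0). After adjustment for gene span 15 were higher and 2 lower. Mitochondrially encoded genes summed to 36376 to 106565 in SCF4, a wide range, and to 37629 to 54072 in CF4. COX3 was at 30457, 10829 and 31230 against 12999, 11407 and 8993, so that SCF4 replicate 2 fell within the CF4 range. Glycolysis had 9 of 23 genes higher (39.1%) and 4 lower (17.4%, against 18.4% of all genes), and PFKFB3, a regulator of glycolytic flux, fell by 1.84. In this list 5 were higher and 4 lower by edgeR or without SCF4 replicate 2, and 3 and 7 after adjustment for gene span. LDHA, lactate dehydrogenase, was called at 0.18 but stood at −0.10 with that adjustment (adjusted p = 0.171) and was not called by edgeR (0.412) or DESeq2 (0.286). Of 33 antioxidant genes, 19 rose (57.6%) and 2 fell (6.06%). After adjustment for gene span 8 were higher and 5 lower, where 21.3% of all genes were higher and 21.6% lower. SQSTM1, an autophagy adaptor and NRF2 target, had 3481, 2790 and 2964 against 974, 1162 and 962 (1.57), thioredoxin, TXN, 9211, 11624 and 7709 against 3481, 3529 and 3415 (1.43), and MGST3 1255, 938 and 989 against 328, 361 and 340 (1.62). Of 28 lysosome and autophagy genes 17 rose (60.7%) and 3 fell (10.7%), or 12 and 5 after adjustment for gene span. The sterol carrier NPC2 (1.24) and the protease CTSB (0.90) were among those that rose. Of 54 cytosolic ribosomal protein genes, 21 rose (38.9%) and 4 fell (7.41%), against 10 and 10 after adjustment for gene span. RPS25 had 485, 237 and 443 against 1431, 1493 and 1521 (−2.0) and RPS6 8906, 10907 and 8696 against 5053, 5120 and 5002 (0.90).

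Lipid genes were read beside the lipid-rich medium that the CF4 protocol mentions. The list of fatty acid synthesis and storage held 36 tested genes. In it 12 rose (33.3%, against 27.3% of all genes) and 8 fell (22.2%, against 18.4%). By edgeR 8 were higher and 9 lower, and after adjustment for gene span 10 and 11. PPARG, the fat cell regulator, had 62.5, 44.9 and 50.9 normalized reads in SCF4 and 17.1, 15.1 and 14.1 in CF4, a log2 change of 1.70 (limma adjusted p = 2.43e-07). SCD, a desaturase, rose by 0.86 and FASN, fatty acid synthase, fell by 0.74. The lipid droplet coat gene PLIN2 was at 541, 577 and 504 against 508, 560 and 473, overlapping and not called (adjusted p = 0.564), and FABP4 was at 3.00 or less in SCF4 and 0 in CF4.

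RUNX2, TET2 and NFAT5 were among the identity, chromatin and osmotic genes that fell. Of 35 mesenchymal and fibroblast identity genes, 13 fell (37.1%, against 18.4% of all genes) and 7 rose (20.0%, against 27.3%). RUNX2, a skeletal factor, had 13.7, 27.5 and 28.2 normalized reads in SCF4 and 108, 96.0 and 105 in CF4 (−2.17), FOXP1 fell by 1.80 and SNAI1 by 0.73, while TWIST1 (0.59) and TWIST2 (0.69) rose. TWIST1 was not called after adjustment for gene span (limma adjusted p = 0.350), nor TWIST2 after quantile normalization (0.0753) or without any single SCF4 or CF4 library other than SCF4 replicate 2 (0.0537 to 0.101). S100A6 had 468, 1141 and 437 against 2535, 2464 and 2459 (−2.01), with SCF4 replicate 2 between the rest. Of 34 HOX genes tested, 3 rose (8.82%) and 31 were not called. Without SCF4 replicate 2, 6 were higher, and after adjustment for gene span 1 was higher and 3 lower. Of 35 HOX genes measured, 20 averaged under 10 normalized reads in both groups. Of 23 chromatin and DNA methylation enzymes, 11 fell (47.8%) and 2 rose (8.7%). The DNA demethylases TET2, with 46.1, 34.8 and 47.1 against 164, 159 and 187 (−1.98), and TET1 (−1.58) fell. Of 24 volume regulation genes, 9 fell (37.5%) and 2 rose (8.33%). NFAT5, the osmotic stress factor, had 298, 297 and 383 against 1174, 1076 and 1390 (−1.89, limma adjusted p = 9.57e-09), the taurine transporter SLC6A6 had 1.72, 1.45 and 3.85 against 43.8, 25.1 and 45.0 (−3.57), and the mechanosensitive channel PIEZO1 fell by 0.68.

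Some immune-type genes rose. Of 26 interferon and antiviral genes 11 rose (42.3%, against 27.3% of all genes) and MX1 fell, or 7 and 2 after adjustment for gene span. MX1 was not called without CF4 replicate 1 (limma adjusted p = 0.0804). IRF1, an interferon regulatory factor, had 54.0, 48.6 and 60.8 normalized reads in SCF4 and 13.2, 14.4 and 12.7 in CF4 (1.94). CD74, the invariant chain of class II major histocompatibility molecules, had 216, 199 and 214 against 42.8, 49.5 and 41.8, a log2 change of 2.21 (limma adjusted p = 1.93e-09), and the class II beta chain BLB2 17.2, 25.4 and 11.1 against 1.29, 2.21 and 1.77 (2.72). The leukocyte markers C1QA, SPI1 and CD4 were at 0 in all 6 libraries.

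The size of the change also followed gene length on the chromosome. Genes with a mean of 50 or more normalized reads were sorted by their span, from start to end of the gene in the RefSeq table of the later assembly GRCg7b, which matched 8325 of 8659. In the first of 5 equal groups, with the shortest genes (median 3.6 kb), 50.8% of 1666 genes rose and 8.4% fell, whereas in the last, with the longest (86.6 kb), 17.5% of 1665 rose and 47.3% fell. The median log2 change over the 5 groups, from short to long, was 0.38, 0.24, 0.13, −0.03 and −0.27. In the other line, SCF2 against CF2, the medians were 0.13, 0.07, 0.05, 0.01 and −0.05, and in SDF1 against DF1 −0.04, −0.08, −0.04, 0.08 and 0.29. By library, the median of the longest group minus that of the shortest, relative to each gene's mean over all 27 libraries, was 0.42, 0.42 and 0.53 in CF4 and −0.27, −0.28 and 0.01 in SCF4. Within SCF4, replicate 3 was thus apart from the other libraries and nearest to 0. The adjusted values given beside genes and lists above come from log2 values centred per library within 20 bins of gene span, an adjustment chosen after seeing the data. The part of gene span in these changes was not tested otherwise.

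**Figure D4:**
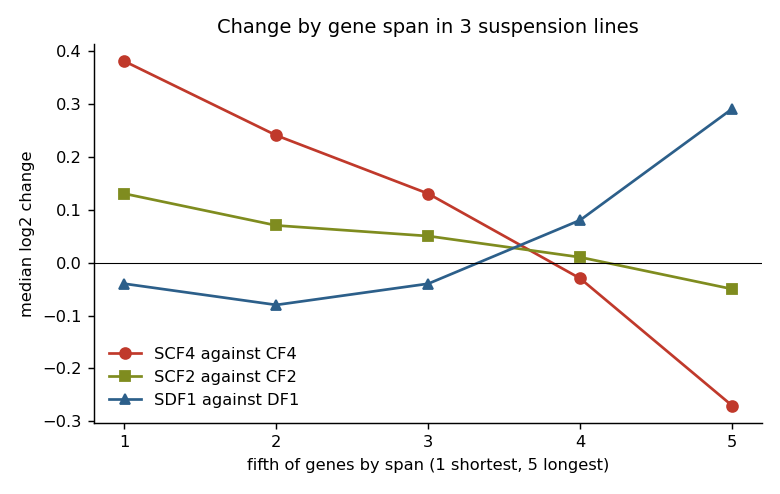
Median log2 change, suspension minus attached, in 5 equal groups of genes ordered by gene span, for line 4, line 2 and the DF1 pair. Line 4 declines from 0.38 in the shortest to −0.27 in the longest group, line 2 from 0.13 to −0.05, and the DF1 pair goes from −0.04 to 0.29.

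The same contrast was available in another line. Line 2, with suspension SCF2 and attached CF2 (3 libraries each), has the same split between the deposited sets; CF2 is labelled Broiler Ross 308, and SCF2 is labelled so in its source name but Israeli Baladi in its breed field, the reverse of SCF4. Of 13123 genes, 5713 were called in line 2 (43.5%), with 25.2% higher and 18.3% lower in SCF2. Of the 3585 genes that rose in SCF4, 1510 (42.1%) also rose in SCF2, which is 45.6% of the 3312 that rose there, and 433 (12.1%) fell. Of the 2417 that fell in SCF4, 955 (39.5%) fell in SCF2, which is 39.8% of the 2401 that fell there, and 413 (17.1%) rose. The difference between the lines was itself tested and was called for 4751 genes (36.2%), 2316 (17.6%) with a higher and 2435 (18.6%) with a lower change in line 4. PLXND1, a semaphorin receptor, averaged 167 ± 38.0 normalized reads in SCF4 and 284 ± 24.7 in CF4, but had no read in SCF2 against 242 ± 17.7 in CF2. FGD5 and NR2C2 did likewise, with no read in SCF2 and 132 ± 11.2 and 105 ± 3.48 in CF2. FAM180A rose in line 4 and had 159 in SCF2 against 270 in CF2. In the other direction SDK2, an adhesion molecule, was 113 ± 14.3 in SCF2 and 0.229 ± 0.198 in CF2, but 62.4 and 35.7 in line 4. The unfolded protein response differed by list, with 17 genes higher and 1 lower in line 4 and 6 and 6 in line 2; the difference between the lines was called higher for 14 of its 21 genes and lower for 1. Among the 19 collagens, line 2 had 5 higher and 5 lower, against 10 higher in line 4. For YAP and TEAD factors, 7 of 19 were lower in line 4 and 9 in line 2.

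A further pair stayed within 1 deposited set. SDF1 and DF1, 3 libraries each, are the anchorage-independent and attached forms of DF1, a fibroblast line from East Lansing Line 0 chickens. Of 11829 genes, 5003 were called between them (42.3%), and the difference from line 4 was called for 4606 (38.9%), with a higher change in line 4 for 2260 (19.1%) and a lower change for 2346 (19.8%). DF1 libraries were uneven, with correlations of 0.954 to 0.994, and without DF1 replicate 3 the difference was called for 7550 genes. Over all genes tested in the DF1 pair, 24.6% rose and 17.7% fell in SDF1. Of the genes that rose in SCF4, 27.7% rose and 16.9% fell in SDF1. Of those that fell in SCF4, 17.3% fell and 28.5% rose. The shares with the same direction were thus near those of all genes. The 993 genes that rose in both were 34.1% of those that rose in SDF1, and the 415 that fell in both were 19.9% of those that fell. Lists were counted in this pair too. Of 19 YAP and TEAD factors, 5 rose and 0 fell in SDF1, and of 24 focal adhesion genes 12 rose and 3 fell. Of 14 collagens tested there, 10 rose and 1 fell, with a median log2 change of 1.27. Of 30 nuclear respiratory chain genes 1 rose and 9 fell, and of 21 unfolded protein response genes 7 rose and 2 fell.

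Some of the deepest falls of line 4 were rises in the DF1 pair. Of the 12 largest falls, TUBB3, S100A4, CSNK2B, GSTA3, SNRPN (1.77), ZNF469 (2.37) and PTPN14 (1.02) rose in SDF1, whereas EDNRB2 (−5.51) and ID2 (−1.41) fell there too and AHNAK2, ZFHX3 and ATP8 were not called. TUBB3 averaged 469 ± 14.8 normalized reads in CF2 and 1.42 ± 1.06 in SCF2, as in line 4, but 5.77 ± 5.13 in DF1 and 362 ± 2.13 in SDF1. S100A4 averaged 1075 ± 68.6 in CF2, 11.2 ± 5.43 in SCF2, 8.57 ± 0.719 in DF1 and 494 ± 13.9 in SDF1. These genes were thus high in CF2, CF4 and SDF1 and low in SCF2, SCF4 and DF1. CSNK2B (323 ± 13.8, 4.94 ± 3.12, 20.4 ± 3.49 and 156 ± 9.87 in the same order) and GSTA3 (173 ± 2.98, 1.36 ± 0.631, 5.73 ± 2.67 and 215 ± 13.3) had this pattern too. CKS1B, a cyclin-dependent kinase partner, had no read in SCF4 and 15.4, 21.8 and 25.6 in CF4, at least 46.3-fold lower in SCF4, and averaged 30.0 in CF2, 0.428 in SCF2, 2.18 in DF1 and 234 in SDF1. In the primary cultures CEF2 and CEF4, S100A4 averaged 8.55 and 9.81 and CSNK2B 5.29 and 4.46, near the SCF4 level, whereas TUBB3 averaged 256 and 50.2.

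**Figure D5:**
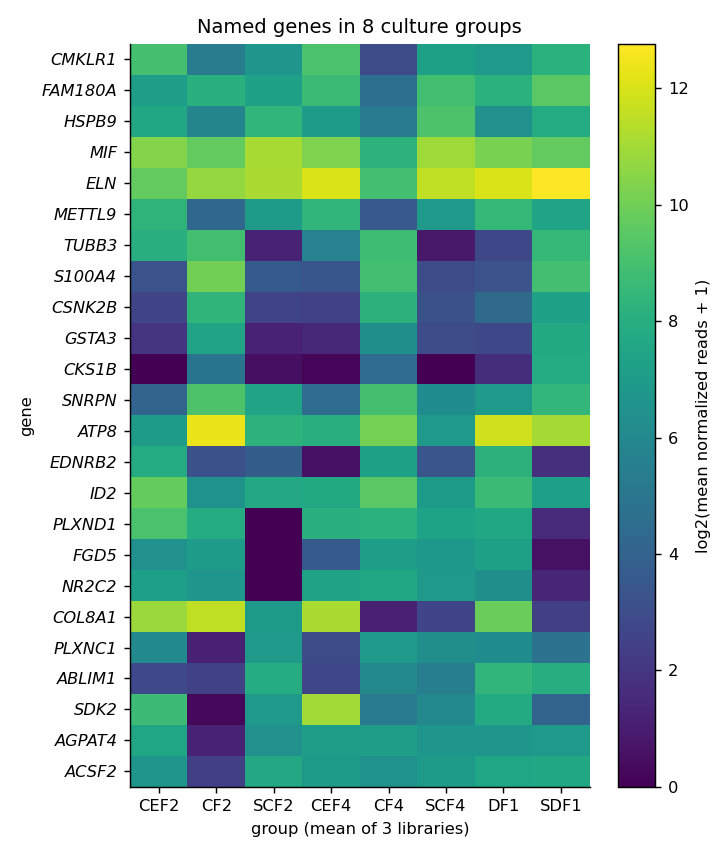
Log2 of the mean normalized reads plus 1, as colour, for 24 named genes (rows) in 8 culture groups of 3 libraries each (columns). TUBB3, S100A4, CSNK2B and GSTA3 are high in CF2, CF4 and SDF1 and low in SCF2, SCF4 and DF1, so that the 3 suspension groups do not share a level.

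Some changes were called in the same direction in all 3 pairs. Of 11779 genes tested in all, 467 were higher and 177 lower in each suspension group. Over all genes, 27.3% rose in line 4, 25.2% in line 2 and 24.6% in the DF1 pair, and 18.4%, 18.3% and 17.7% fell. Such shares alone give genes with a common direction. Whether 467 and 177 exceed that number was not tested. Examples, named after their values were seen, include ADH1C, an alcohol dehydrogenase, with log2 changes of 1.91 in line 4, 2.08 in line 2 and 5.44 in the DF1 pair. OAF rose by 1.80, 1.5 and 1.90, and HSPB9, named above, by 3.85, 2.60 and 1.39. The chromatin remodeller ATRX had 525, 812 and 681 normalized reads in SCF4 and 1701, 1686 and 1941 in CF4, and fell by 1.42, 1.22 and 1.6.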

How the data were processed

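Total RNA of 27 libraries in 9 groups of 3 had been sequenced. Per the labels' protocols it was isolated with a column kit and made into libraries with a NuGEN kit; the submitters' processing notes name Bowtie2, RSEM, DESeq2 and the build galGal6, with no roles. The deposited table of normalized signal per gene symbol was used. Its file calls the values TPM, but they do not sum to a common total and every value in every library was a whole multiple, within 0.01, of 1 number for that library (100% of values), so the deposited values were read as counts divided by a library factor, a reading that comes from the values alone, and the whole counts were recovered for edgeR and DESeq2.

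Genes with a value of 1 or more in at least 3 fitted libraries were tested with limma 3.58.1 (trend and robust) in R 4.3.3 on log2 of normalized reads plus a pseudocount of 1. One fit held SCF4, CF4, SCF2, CF2 and the primary cultures (18 libraries) and gave line 4, line 2 and their difference; another held SCF4, CF4, SDF1 and DF1 (12 libraries). The 12 largest rises and falls named had a mean of 10 recovered reads per M or more in the higher group and no overlap. The 6 largest gains and losses in reads followed the same criteria. So did the 5 largest differences each way, with the mean taken in the highest group fitted and no overlap between SCF4 and CF4. Up to 4 members of each list with the smallest p and 44 genes of interest were also named. Other list members were named after their values were seen. The 50 lists and the comparisons were chosen with earlier results of these data known. Alternatives were edgeR 4.0.16, DESeq2 1.42.0, quantile normalization, a pseudocount of 0.1, no filter, a filter of 10, only the libraries compared, a minimum log2 change of 1, a replicate block and leaving out each library. The scripts were tested on simulated data. Floors are 3 reads over a group and cover counting error only. Of 14161 rows, 13456 (95.0%) matched a RefSeq gene of GRCg7b by symbol or, failing that, by synonym. Since the deposited values use galGal6, no positions are given and chromosomes were not compared. The table holds 17 symbols turned into dates, which were not named. Some genes that met these criteria are not reported here.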

Additional observations from a re-analysis of the deposited data

Results flagged for a closer look

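The following values were set apart because the change from attached to suspension culture in line 4 differed, by limma's test of the difference itself, from that of line 2 or of the DF1 pair. The difference between the lines was called for 4751 genes and the difference from the DF1 pair for 4606. All differences below are on the log2 scale, line 4 minus the other pair, with Benjamini-Hochberg adjusted p under the threshold.

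Against line 2, the largest positive differences were in PLXND1 (7.14 ± 0.21, SE, adjusted p = 1.36e-13), the exchange factor gene FGD5 (6.66), the collagen gene COL8A1 (6.21), the nuclear receptor gene NR2C2 (6.01) and FAM180A (5.00). PLXND1, FGD5 and NR2C2 had no read in SCF2, so that the fitted difference depends on the pseudocount: at 0.1 it was 10.46, 9.97 and 9.32. COL8A1 averaged 123 ± 10.3 normalized reads in SCF2 and 2944 ± 11.3 in CF2, and 5.35 and 1.28 in SCF4 and CF4. The largest negative differences were in the semaphorin receptor gene PLXNC1 (−6.38), ABLIM1 (−6.10), SDK2 (−5.75), AGPAT4 (−5.68) and ACSF2 (−4.88). These 5 genes were near 0 in CF2, at 0.229 to 4.62 on average, and at 86.9 to 240 in SCF2, while in line 4 PLXNC1 was at 78.8 and 113 and ABLIM1 at 43.6 and 64.1 in SCF4 and CF4.

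Against the DF1 pair, the positive differences were COL8A1 (8.10), the endothelial cadherin gene CDH5 (7.46), FGD5 (5.97), C1QTNF3 (5.74) and CRIP1 (5.62). In these genes DF1 libraries scattered: COL8A1 averaged 942 ± 1272 (SD, n = 3) in DF1 and 4.37 in SDF1, and CDH5 917 ± 1330 and 3.99. The negative differences were TUBB3 (−14.08), S100A4 (−11.73 ± 0.28), CKS1B (−11.07), GSTA3 (−8.49) and CSNK2B (−7.92 ± 0.24), where SDF1 was high and DF1 low. CKS1B had no read and TUBB3 6 reads in SCF4, so that their fitted differences depend on the pseudocount: at 0.1 they were −15.79 and −16.04.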

How the results depend on the processing

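The count of called genes for SCF4 against CF4 was 6002 and lay between 5631 and 6300 over 8 other analyses (edgeR 5764, DESeq2 5934, quantile normalization 5692, gene span adjusted 5631). With a minimum log2 change of 1 it was 279. Leaving out 1 library gave 5053 to 5724; for the difference between the lines this range was 4155 to 4980, for line 2 4943 to 5982, for the difference from the DF1 pair 3736 to 7550 and for SDF1 against DF1 3923 to 7408, the highest of both without DF1 replicate 3. No gene had at most 1 read in every library of one group and 100 or more in every library of the other; at 30 reads there were 7, all with at most 1 read in each SCF4 library, CKS1B, INPPL1, KIF1A and B3GNT3 among them. Among the genes that met the naming rule, no setting reversed one other than the gene span adjustment, which gave RB1 0.19, PTK2 0.27 and LDHA −0.10; it also ended the calls of 20 others, the count of lost calls being 4 with edgeR, 2 with DESeq2 and 5 with quantile normalization. List members outside the rule, such as PCNA and CYR61, are not in these counts. Of the 50 lists, 6 moved in their count of called members by over 1.5 times with the gene span adjustment and up to 3 without a library. The minimum log2 change of 1 had the largest effect. It ended 160 calls among the genes of the naming rule, and all 50 lists moved with it. Same-numbered libraries of SCF4 and CF4 deviated together weakly or not at all (r = 0.043, −0.002 and 0.123 across genes). Differently numbered libraries gave r from −0.101 to 0.071. With 3 libraries a group these values cannot settle whether the numbers pair the libraries. A replicate block gave 5890 called genes for line 4 and 5614 for line 2. With that block the difference between the lines was called for 4647 genes and that from the DF1 pair for 4493. No call changed with it among the genes of the naming rule. The causes of these shifts were not tested. With 3 libraries a group, and reads of SCF4 replicate 2 at 12.26 M, falls to a few reads are bounded only by the floors. Medians by chromosome were planned but not run, since the gene table and the files use different builds.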

Other observations

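Neighbouring genes were looked at in the order of the GRCg7b gene table, in 205 windows of 40 genes, with log2 changes adjusted for gene span; windows were named after their values were seen and no test was made. The median change of a window ran from −0.46 to 0.28, with the 5th and 95th percentiles at −0.22 and 0.20. In 8 windows it was −0.30 or lower and in none 0.30 or higher. The lowest, from DSG4 to ADHFE1, had 33 of 40 genes below 0 and 25 called lower, and its median was −0.72 in line 2. In the window from CMIP to SPG7, the median was −0.41 in line 4, with 32 genes below 0, and −0.06 in line 2. Other windows shifted in line 2 and hardly in line 4. From SLC35A5 to MPC2 the median was −1.15 in line 2 and −0.01 in line 4. From PLA2G15 to FAM65A it was 1.14 in line 2 and 0.10 in line 4. Over all genes tested, 18.4% were called lower in the main test and 21.6% after adjustment for gene span, and the median over windows was 0.03. The windows held only genes above a minimum mean level, so these shares are not those of the genes in the windows.

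Histone genes, not described above, held 7 of 15 tested lower (46.7%, against 18.4% of all genes) and 4 higher (26.7%, against 27.3%) in SCF4. After adjustment for gene span 9 were lower and 2 higher. Of 22 heat shock genes 9 rose (40.9%) and 5 fell (22.7%). HSPB1 had 459, 531 and 514 normalized reads in SCF4 against 1222, 1330 and 1262 in CF4, a log2 change of −1.34 (limma adjusted p = 1.42e-04), opposite to HSPB9. Of 30 genes of the cilium and Hedgehog list, 14 rose (46.7%) and 4 fell (13.3%). The counts were 8 and 5 by edgeR, and 9 and 4 without SCF4 replicate 3 or CF4 replicate 1. The Hedgehog effector GLI3 (−1.43) and receptor PTCH1 (−1.37) fell, and the intraflagellar transport gene IFT20 rose by 1.67.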
